A study of Mus musculus with 6 samples.

Results

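The genes described here are the 2 plasminogen activators Plat and Plau, the urokinase receptor Plaur, and 4 members of the serpin family that fibroblasts are known to make, Serpine2, Serpinf1, Serpinh1 and Serping1. They are 7 of the 50090 gene names on a mouse expression array, and every non-control probe that carries one of these names was taken, which gave 13 of 61307 probes. Serpinh1 had 3 probes, Plat, Plau, Plaur and Serpinf1 had 2 each, and Serpine2 and Serping1 had 1 each. The probes of a gene are numbered from the brightest to the dimmest over all arrays, and no probe's level is set against another probe's.

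Plasminogen activators cut plasminogen, an abundant zymogen of plasma, into plasmin, a protease that dissolves fibrin and degrades extracellular matrix. Tissue-type activator, encoded by Plat, acts mostly on fibrin, whereas urokinase, encoded by Plau, works at the cell surface when bound to its receptor, encoded by Plaur. Most serpins are inhibitors that trap a serine protease, but some members of the family have lost that activity and serve as chaperones or signalling proteins.

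The study asked how overexpressed SIRT7, a nucleolar member of the sirtuin deacetylases, changes fibroblasts. NIH3T3 cells, an immortalised mouse embryonic fibroblast line, received a retroviral vector (pCX4Neo) for GFP alone or for SIRT7 fused to GFP and were selected with Geneticin. Total RNA of 3 groups was hybridised with Cy3 to 1-colour Agilent arrays, with 2 arrays per group. The GFP group expressed GFP alone. The LT7 group carried the SIRT7 fusion and came from the long, spindle-shaped cells around dense colonies, and the ST7 group carried the same fusion and came from the small, aggregated cells inside such colonies. All groups were grown in DMEM with 10% FBS. Small and long cells were isolated by hand and expanded as single cell clones, so clone and group cannot be told apart. The study's methods describe replicates as separate passages, and p-values therefore measure the spread between passages, not between independently derived clones.

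The arrays of the ST7 group stood apart. A probe counts as well above background where the scanner software marks it so. That share was 57.5% and 53.6% on the GFP arrays, 47.5% and 47.6% on the LT7 arrays, and 26.4% and 25.8% on the ST7 arrays. The brighter Sirt7 probe read 3125 and 2480 on the GFP arrays, 3633 and 2782 on the LT7 arrays, and 2.85 and 3.28, which is background, on the ST7 arrays. The labels of both SIRT7 groups say that SIRT7 is overexpressed. The LT7 readings overlapped with those of GFP and do not show this, and the ST7 readings go against it. Whether these probes can detect the introduced fusion is not known. By immunoblot, the study found no significant difference in the level of the fusion protein between LT7 and ST7. Of 15 fibroblast markers, 14 were well above background on both GFP arrays and on both LT7 arrays, but 4 on both arrays labelled ST7. The 4 were Vim, at 14612 and 16192, Col1a1, at 295 and 255, Col1a2, at 98.1 and 86.6, and S100a4, at 35.7 and 44.5. The other 11 were so on neither of these arrays, among them Col3a1, Pdgfra, Thy1, Dcn and Lum. Of 15 epithelial markers, 4 were well above background on both arrays labelled ST7 (Epcam, Krt18, Cldn3 and Dsp) and 3 on both GFP arrays. On neither array labelled ST7 were 9 of them well above background. These included Cdh1, at 2.96 and 3.46, and Ocln, at 3.08 and 15.1, whose transcripts the study detected in ST7 by RT-PCR. Of 121 probes for ribosomal proteins, which every cell makes, that were well above background on both GFP arrays, 34 were so on neither array labelled ST7 and none lost detection on both LT7 arrays. The 34 are 28.1%, a smaller share than the 52.9% of all probes detected on both GFP arrays. Over a GFP signal of 10000 the shares were 19.6% and 34.7%. Both LT7 arrays lost 8.2% of all such probes. The part that the makeup of these arrays plays in the ST7 results was not tested, and fewer cells of a type and less RNA per cell cannot be told apart.

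The sequences of 5 probes are given because the results turn on them. They are the only Serpine2 and Serping1 probes, the Serpinf1 probe that kept a signal on the arrays labelled ST7, and 1 probe each for tissue-type activator and the urokinase receptor. Each is the 60 bases printed on the array, 5′ to 3′.

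Plat probe 2: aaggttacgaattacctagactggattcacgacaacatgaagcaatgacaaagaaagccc
Plaur probe 2: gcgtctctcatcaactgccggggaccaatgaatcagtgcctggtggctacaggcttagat
Serpine2 probe 1: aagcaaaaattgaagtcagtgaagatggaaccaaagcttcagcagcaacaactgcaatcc
Serpinf1 probe 2: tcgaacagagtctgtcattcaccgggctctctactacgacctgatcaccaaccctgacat
Serping1 probe 1: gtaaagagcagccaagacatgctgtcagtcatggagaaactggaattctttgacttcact

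The 2 probes of a gene shared at most 6 bases in a row for Plat, Plau, Plaur and Serpinf1, so they read different stretches of the transcript. Serpinh1 probes 2 and 3 had the same 60 bases and are 1 measurement made on separate spots.

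On the arrays of the GFP group, 12 of the 13 probes were well above background on both arrays, and on those of the LT7 group 11 were. On the arrays labelled ST7, 3 probes were well above background on both, namely Plat probe 1, Serpine2 probe 1 and Serpinf1 probe 2. In the plot of signals by array, both ST7 readings lay below every GFP and LT7 reading for most of the probes. Serping1 was among them, although its LT7 readings were at background too. These signals were not scaled, and the ST7 arrays were dimmer as a whole. Their median signals were 3.32 and 3.78, against 18.0 to 25.6 on the other arrays. Of all probes detected on both GFP arrays, 52.9% were well above background on neither array labelled ST7, as were 9 of these 12.

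**Figure D1:**
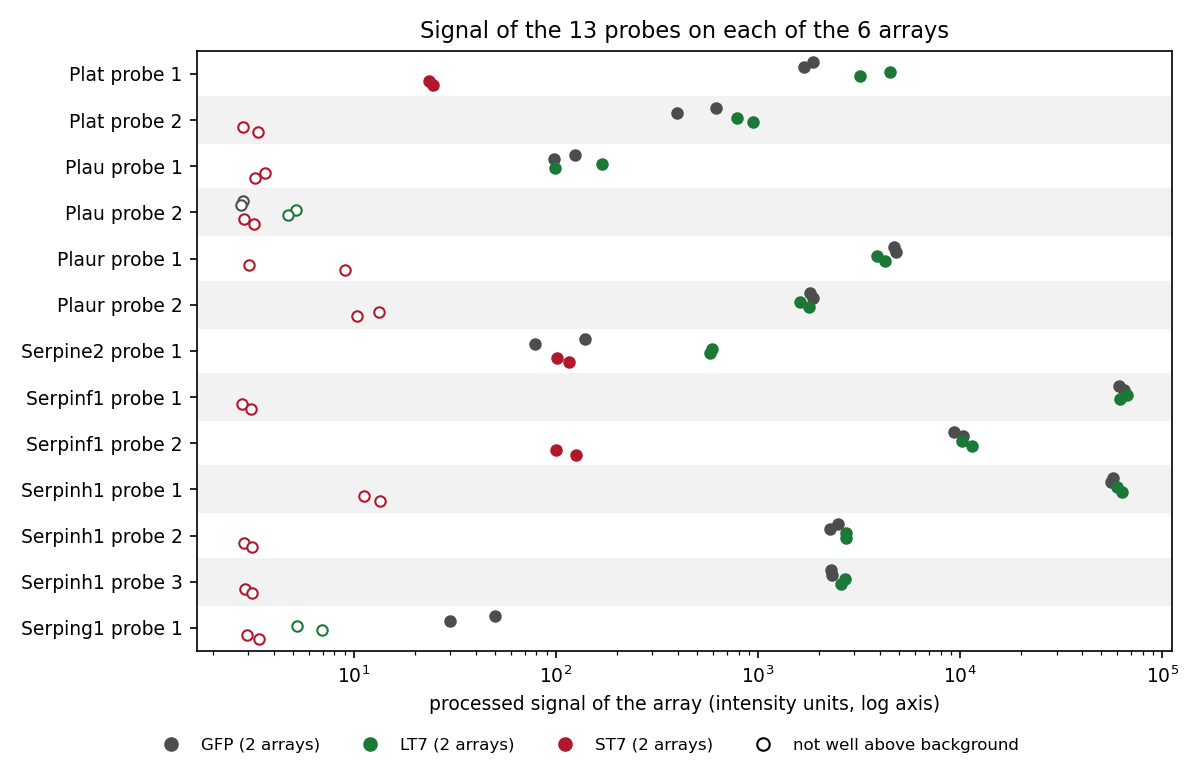
Processed signal of each of the 13 probes on the 6 arrays, on a log axis, with 1 point per array coloured by group and open where the probe was not well above background. The ST7 points lie far to the left of the GFP and LT7 points for most probes, but among the GFP points for Serpine2, and LT7 lies to the right of GFP for Plat and Serpine2.

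For the tests, log2 signals were shifted by the 75th percentile of the 11140 probes that were well above background on all 6 arrays, and limma was fitted to all probes and arrays. A call needed a Benjamini-Hochberg adjusted p over all probes under 0.05 and, in the brighter group, detection above background on each array. Both SIRT7 groups were set against the same GFP arrays, so those comparisons share their controls. With this scaling the median change of all probes was 0.15 on the log2 scale for LT7 against GFP, 1.77 for ST7 against GFP and 1.65 for ST7 against LT7, so a change in ST7 is to be read relative to that median. Where one group was at background on both arrays, a fold is a lower bound, taken against the lowest well-above-background signal of each array. All folds and bounds hold for this scaling only. With the percentile over all probes, the median change for ST7 against GFP was 3.72, so bounds on falls in ST7 would be smaller.

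LT7 against GFP asked what the SIRT7 fusion accompanied in cells that kept the spindle shape. In this comparison none of the 13 probes was called, whereas 0.0228% of all probes were called higher and 0.0848% lower. Without adjustment, limma gave a p under 0.05 for 5 of the 13 probes, 1 of them Plau probe 2 at background, and for 27.1% of all probes. Among the probes detected in either group, those of Serpine2, Serping1 and Plat had the changes of greatest size.

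Serpine2 encodes protease nexin-1, a serpin that inhibits urokinase, tissue-type activator and thrombin. Its probe read 140 and 78.7 on the GFP arrays and 589 and 577 on the LT7 arrays. Both LT7 readings lay above both GFP readings. The log2 change was 2.56 ± 0.30 (SE, n = 2 against 2), a 5.90-fold higher signal, with a limma adjusted p of 0.077 and an unadjusted p of 0.00041. The call was made with normexp background correction (1.97, adjusted p = 0.021 by limma), in the test of bright probes alone (adjusted p = 0.044 by limma) and by the fold rule of the methods, which uses no p. On the spike-in RNAs the change was 0.35 ± 1.79 (adjusted p = 0.85 by limma).

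Plat was also brighter on the LT7 arrays. Probe 1 read 1868 and 1692 for GFP and 4485 and 3194 for LT7. Probe 2 read 617 and 397 for GFP and 783 and 942 for LT7. For both probes the groups did not overlap, and the log2 changes were 1.18 ± 0.22 and 0.88 ± 0.28 (SE, n = 2 against 2). The limma adjusted p was 0.077 for probe 1 and 0.12 for probe 2, so neither was called. By the fold rule of the methods, probe 1 was called higher and probe 2 was not called. Fold changes were 2.26 and 1.84.

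Serping1, which encodes the C1 inhibitor of the complement and contact systems, went the other way. It read 50.1 and 29.8 on the GFP arrays and 5.23 and 6.95 on the LT7 arrays, where it was not well above background. The log2 change was -2.60 ± 0.32 (SE, n = 2 against 2, limma adjusted p = 0.077), and the signal was at least 1.73-fold lower. Over the alternatives the lowest limma adjusted p was 0.049, and the fold rule of the methods called it lower. Serping1 was the only one of the 7 genes detected in GFP and at background in LT7.

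The other probes differed little between LT7 and GFP. Plau probe 1 read 124 and 97.9 for GFP and 169 and 98.9 for LT7, and the lower LT7 reading lay within the GFP range. Plau probe 2 was at background on all 6 arrays, between 2.77 and 5.16, and gives no level for urokinase. Plaur probe 1 read 4714 and 4811 for GFP against 3895 and 4266 for LT7, a log2 change of -0.14 ± 0.54 (limma adjusted p = 0.92).

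Serpinf1 encodes pigment epithelium-derived factor, a secreted serpin that is not a protease inhibitor. Its probe 2 read 9343 and 10376 for GFP and 10202 and 11512 for LT7, and the groups overlapped. Probe 1 read 67135 and 61585 for LT7, the second of these saturated, and also overlapped with GFP. Serpinh1 encodes HSP47, the collagen chaperone of the endoplasmic reticulum. Its probe 1 read 56859 and 55934 for GFP and 60087 and 63176 for LT7, where it was saturated on both arrays. Serpinh1 probe 2 read 2487 and 2269 for GFP against 2720 and 2730 for LT7, a log2 change of 0.28 ± 0.18 (limma adjusted p = 0.40). For Serpinh1 the LT7 readings lay above the GFP readings, but the change missed the threshold, which does not show that the groups were equal.

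The array of LT7 replicate 1 was scanned apart from the other 5, all on 1 slide, so scan and that array cannot be told apart. Without it the log2 change of Serpine2 was 2.57 and those of the Plat probes were 0.96 and 1.04. Its 5 usable spike-in probes averaged 12.87 on the log2 scale, against 8.48 to 8.75 on the other arrays. Scaling on those spike-ins moved the median change of all probes to -2.05 and turned the Plat changes to -1.03 and -1.33, each with an SE of 1.79.

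ST7 against GFP asked what marked the small, aggregated cells. On the arrays labelled ST7, 11 of the 13 probes were called lower and 1 was called higher. Of all probes, 27.8% were called lower and 14.8% higher. The median log2 change of the 13 probes was -4.84, against 1.77 over all probes. Among probes well above background on both GFP arrays, 53.0% of all 32130 and 11 of these 12 were called lower. By GFP signal, the share of all such probes was 43.3% under 1000, 75.7% from 1000 to 10000 and 67.4% over 10000. In the same ranges, 3 of 4, 6 of 6 and 2 of 2 member probes were called lower.

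**Figure D2:**
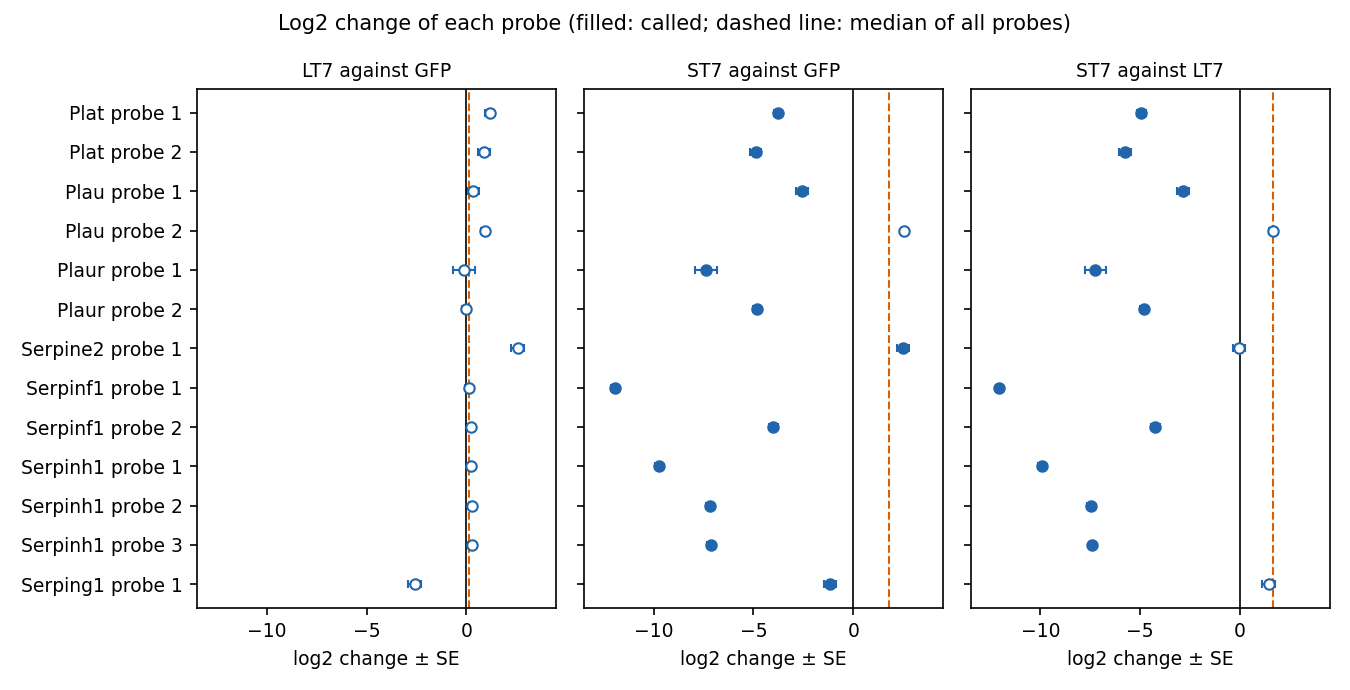
Log2 change of each probe with its standard error in the 3 comparisons, filled where called, with a dashed line at the median change of all probes. No probe is filled for LT7 against GFP, and for ST7 against GFP the changes run from -11.94 for Serpinf1 probe 1 to 2.57 for Plau probe 2, which was at background throughout.

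Among the activators, Plat probe 1 kept a signal in ST7, at 23.4 and 24.5, which lay far below every GFP and LT7 reading. The log2 change was -3.76 ± 0.22, or 13.6-fold lower (limma adjusted p = 0.00011). Plat probe 2 read 2.83 and 3.33, at background, and was at least 6.15-fold lower than in GFP. Plau probe 1 read 3.61 and 3.22 in ST7, also background. Its fall was at least 1.37-fold (log2 change -2.56 ± 0.30, limma adjusted p = 0.00079), a bound that the low GFP signal keeps small, and with normexp the sign turned to 0.90.

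The receptor Plaur was at background on both arrays labelled ST7 by both of its probes. Probe 1 read 3.02 and 9.04 and was at least 59.1-fold lower than in GFP. Probe 2 read 13.2 and 10.4 against 1798 and 1870 in GFP and was at least 22.8-fold lower. The log2 changes were -7.38 ± 0.54 and -4.84 ± 0.21, with limma adjusted p of 0.00016 and 3.8e-05.

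Serpinf1 gave a large fall by both probes, but of different size. Probe 1 read 61222 and 65004 in GFP and 2.80 and 3.10 in ST7, which is at least 784-fold lower. Probe 2 read 99.7 and 125 in ST7, well above background on both arrays, and was 16.1-fold lower than in GFP. The direction was thus shared by the 2 probes, while one was at background and the other kept a clear signal on the same arrays.

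Serpinh1 was at background in ST7 by all 3 probes. Probe 1 read 11.3 and 13.4 and was at least 700-fold lower than in GFP (log2 change -9.71 ± 0.19, limma adjusted p = 1.1e-05). Probes 2 and 3, which have the same sequence, read between 2.86 and 3.14 and were at least 29.5-fold and at least 28.7-fold lower.

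Serpine2 was the exception among the detected genes. It read 101 and 116 on the arrays labelled ST7, between the GFP readings of 140 and 78.7 and below both LT7 readings. After scaling, its log2 change from GFP was 2.49 ± 0.30, 5.63-fold higher (limma adjusted p = 0.00092), which is 0.72 above the median change of all probes. Without scaling the change was 0.04 (limma adjusted p = 0.93). The higher call therefore depends on the scaling, and what the data show without it is a signal about as bright as in GFP.

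Serping1 read 2.95 and 3.40 in ST7, at background. It was called lower than in GFP (log2 change -1.16 ± 0.32, limma adjusted p = 0.020), but the background of these arrays allows no fold. The call was lost without GFP replicate 1 (-0.82, adjusted p = 0.083), without ST7 replicate 1 (-1.04, adjusted p = 0.094) and without ST7 replicate 2 (-1.28, adjusted p = 0.059), by limma. With the percentile taken over all probes the sign turned (0.79).

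**Figure D3:**
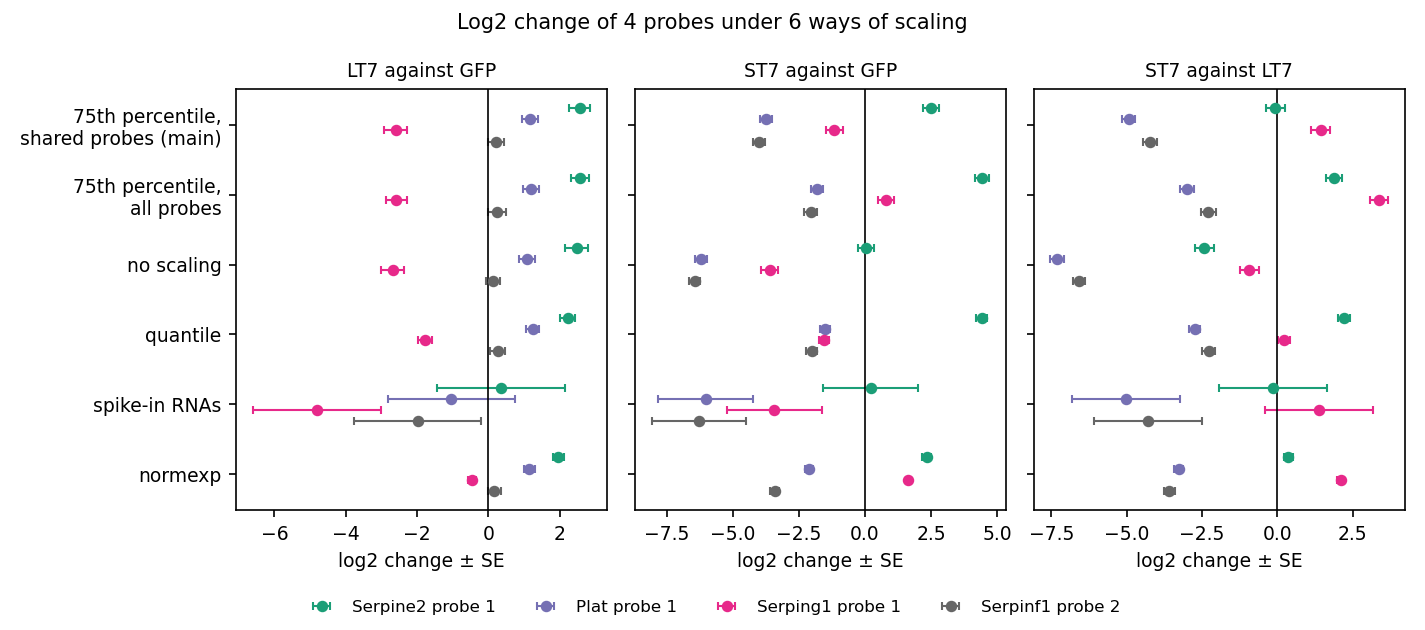
Log2 change with its standard error for Serpine2, Plat probe 1, Serping1 and Serpinf1 probe 2 under 6 ways of scaling the arrays, in the 3 comparisons. For ST7 against GFP, Plat and Serpinf1 stay below 0 under all 6, while Serpine2 ranges from 0.04 without scaling to 4.44 with the percentile over all probes, and Serping1 changes sign.

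ST7 against LT7 compared the 2 kinds of cell that carried the same fusion. Of the 13 probes, 10 were called lower in ST7 and 0 higher. Of all probes, 27.1% were called lower and 15.1% higher. Plat probe 1 was 30.7-fold lower and probe 2 at least 11.3-fold lower. Plaur probes 1 and 2 were at least 53.7-fold and at least 22.4-fold lower, and Serpinf1 probe 2 was 18.8-fold lower. Serpinh1 probe 1 was at least 812-fold lower.

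The 3 probes that were not called were Plau probe 2, Serping1 and Serpine2. The first 2 were at background in both groups. For Serpine2 the log2 change was -0.07 ± 0.30 (limma adjusted p = 0.84), although the unscaled signals of 101 and 116 lay below those of 589 and 577. Without scaling it was -2.43 (limma adjusted p = 0.0024), and with the percentile over all probes it was 1.87 (limma adjusted p = 0.0010). Whether ST7 and LT7 differ in Serpine2 is thus not settled by these arrays.

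The wider plasminogen system was described by 34 partner genes (inhibitors, receptors, binding proteins and related clotting proteases), with the brightest probe of each. None was called in LT7 against GFP. In ST7 against GFP, 13 were called lower and 5 higher, beside 27.8% and 14.8% of all probes, with a list median of 0.88 against 1.77 over all probes.

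S100a10 and Anxa2 encode the 2 subunits of a cell surface receptor for plasminogen and tissue-type activator, and in ST7 against GFP the first was called lower and the second was not called. S100a10 read 26626 and 30531 in GFP and was at least 354-fold lower. Anxa2 read 8814 and 9778 in GFP and 1245 and 1346 in ST7, which after scaling was a log2 change of -0.39 ± 0.21 (limma adjusted p = 0.14). Lrp1, the endocytic receptor that clears activator and inhibitor complexes, was 31.5-fold lower.

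The thrombin receptor F2r and the receptor Igf2r, which binds Plaur, were at least 74.0-fold and at least 32.9-fold lower. Serpinc1 (antithrombin), St14 (matriptase) and F12 (coagulation factor XII) were the named genes called higher. St14 was at background in GFP and was at least 9.06-fold higher, while Serpinc1 and F12 changed by 3.55 and 2.72 on the log2 scale. Their signals were low, since Serpinc1 read 57.4 and 29.2 in GFP and 94.8 and 80.9 in ST7.

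Of 25 collagen chaperones and modifying enzymes of the endoplasmic reticulum, the setting in which Serpinh1 works, 24 were on the array. None was called in LT7 against GFP. In ST7 against GFP, 18 were called lower and 2 higher, beside the same shares of all probes, and the list median was -4.63. On both GFP arrays, 23 of the 24 were well above background. Of all such probes, 75.7% with a GFP signal from 1000 to 10000 and 67.4% with one over 10000 were called lower. Under 1000 it was 43.3%. The count of lower genes thus does not by itself set this list apart. P4hb, the disulfide isomerase that is also a subunit of collagen prolyl hydroxylase, read 20726 and 19419 in GFP, fell to 9.4 and 3.2 on the arrays labelled ST7, and was at least 249-fold lower. Pdia6, a related isomerase, and P4ha2, a catalytic subunit of the hydroxylase, were at least 336-fold and at least 94.4-fold lower.

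Other chaperones of the same compartment stayed well above background. Hspa5 (BiP) read 33396 and 36501 in GFP and 5572 and 5755 in ST7, a scaled log2 change of -0.17 ± 0.19 (limma adjusted p = 0.43). Pdia4 and Plod1, a lysyl hydroxylase, were the 2 called higher, by 2.69 and 1.51 on the log2 scale. Before scaling Pdia4 rose little, from 1890 and 2171 in GFP to 2242 and 2559 in ST7. Plod1 was even dimmer before scaling, at 594 and 491 in GFP and 285 and 277 in ST7.

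Complement and contact genes around C1 inhibitor made up a list of 34, all on the array. None was called in LT7 against GFP. In ST7 against GFP, 11 were called lower and 4 higher, with a median of 1.41. These shares lie near the 27.8% and 14.8% of all probes. C1s, a protease that C1 inhibitor blocks, read 9153 and 4822 in GFP and was at least 82.5-fold lower, and C3, the central complement component, read 75592 and 58215 in GFP, the first saturated, and 14.8 and 26.0 in ST7, with 1 of the 2 arrays well above background. C1qbp, a binding protein of C1q, was at least 288-fold lower. Bdkrb2, a bradykinin receptor, read 7.72 and 10.9 in GFP, at background, and 29.0 and 22.3 in ST7. After scaling it was at least 10.3-fold higher. F12 (2.72) and C1qb (2.61) were also called higher. C1qb read 52.0 and 53.7 in GFP and 56.1 and 61.8 in ST7, so that its change came almost wholly from the scaling. Most of the change of F12 came from the scaling too.

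Over the 3 lists, which hold 90 different genes, 0 were called in LT7 against GFP by limma, and 24 had an unadjusted p under 0.05, near the 27.1% of all probes. In ST7 against GFP 42 were called lower and 10 higher, beside 27.8% and 14.8% of all probes. The split moved with the scaling, to 52 lower and 2 higher without scaling and to 36 lower and 0 higher on the spike-ins. The median change of all probes moved as well, to -0.68 without scaling and -0.51 on the spike-ins. Shares of all probes called under those scalings are not given here. In ST7 against LT7 41 were called lower and 9 higher, beside 27.1% and 15.1% of all probes. Without scaling 50 were lower and 3 higher, and on the spike-ins 25 were lower and 0 higher.

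**Figure D4:**
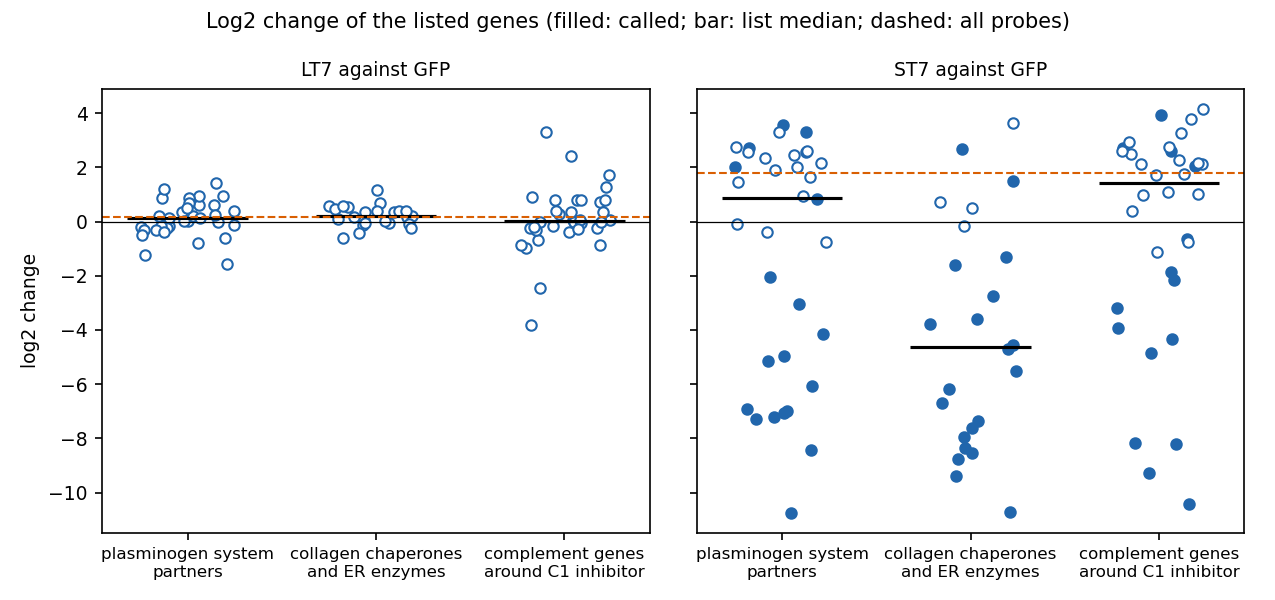
Log2 change of each listed gene (brightest probe) for LT7 against GFP and ST7 against GFP, filled where called, with a bar at the list median and a dashed line at the median of all probes. The LT7 points lie around 0 and none is filled, and in ST7 the collagen chaperone list has a median of -4.63 while the other medians are 0.88 and 1.41.

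The genes whose pattern over the 6 arrays was most like each member's brightest probe were found by Euclidean distance of log2 values, each centred on its own mean, among 16282 probes. For Serpinf1 they included Rpl36a and Eif3l, at distances of 0.07 and 0.12. For Serpinh1 they were Tars, Acot13 and Ik, at 0.10 to 0.18. For Plaur they were Gon4l, Pafah1b1 and Slc1a5, at 0.28 to 0.32. All of these named neighbours were at background on both arrays labelled ST7.

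For Plat the nearest were Cytip, Lpin1 and C1qtnf6, at 0.24 to 0.31, and for Plau they were Cyth1, Stt3b and Mbd1, at 0.17 to 0.24. For Serping1 they were Gabbr2, Igf1 and Dhh, at 0.39 to 0.45. Serpine2 had the least close neighbours, Epyc, Jag1 and Lmod1, at 1.06 to 1.11. Of the neighbours in this paragraph, C1qtnf6, Stt3b, Jag1 and Lmod1 were well above background on both arrays labelled ST7. The others were at background there, among them Epyc, Cytip and Lpin1, although Serpine2 and Plat probe 1 were themselves detected.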

How the data were processed

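RNA of 6 cultures (2 each of GFP, LT7 and ST7) was measured on 1-colour arrays. The processed signals (intensity units) were deposited as made by the authors with Agilent Feature Extraction 10.5.1.1, already background-subtracted and not scaled between arrays. The series matrix deposited by the authors holds log2 signals shifted to each array's 75th percentile over all probes and was an alternative. Its direction and scale matched the scanner values, less exactly on the ST7 arrays. For GFP and LT7, 5 to 13 probes per array differed by more than 0.01. For ST7, 61262 and 61170 of the 61307 probes did, with a median difference of -0.01 and -0.02. The scanner's 0 or 1 marks for background, saturation and outlier spots were used as deposited. Array number, not read depth, limits precision.

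Outlier spots were left out, repeated spots averaged and log2 taken. The study's methods shift by the 75th percentile over all probes. Here only the 11140 probes detected well above background on every array set the percentile, because on the ST7 arrays the percentile over all probes, 16.3 and 17.1, lay near the lowest signal well above background, 13.9 and 15.5. The model was fitted with limma 3.58.1 in R 4.3.3 (lmFit, contrasts and eBayes, all 6 arrays, Benjamini-Hochberg over all probes), and tested on simulated data. Tables and figures were made in Python 3.11.15. The fold rule of the methods (0.8 on each array and a mean over 1) was read as log2 values, a scale the methods do not state. Detection on each array of the brighter group was also required here, a condition that the methods do not name.

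Alternatives were the percentile over all probes, no scaling, quantile normalization, spike-in scaling (5 of 10 spike-in probes), normexp with an offset of 50, the series matrix, bright probes only, no background condition, the fold rule of the methods, pairs of groups alone, a replicate block and each array left out. The members, gene lists and markers were chosen with earlier results of these data known. Named genes were all members, Lrp1, Anxa2, S100a10, P4hb, C1s and C1ra (not named on the array), and of each list up to 3 called genes in each direction by size of change; some items are not reported here. Hspa5, Cd55, Thbd and the ribosomal protein probes were chosen after their values were seen. Probe names are those of the array's design.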

Additional observations from a re-analysis of the deposited data

How the results depend on the processing

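Of the 13 probes, 12 were called in ST7 against GFP and 10 in ST7 against LT7, and over the alternatives these counts ran from 10 to 13 and from 8 to 12. For LT7 against GFP the count of 0 became 1 with normexp, 2 with bright probes only and 3 by the fold rule of the methods. For the 90 listed genes the count of 0 became 2 with the percentile over all probes, the series matrix or bright probes only, 3 with normexp and 5 by the fold rule. The share of all probes called under each alternative is not given here. These counts therefore do not set the members or the lists apart from other probes. In ST7 against LT7, 50 listed genes were called, and 25 on the spike-ins. Leaving out each array gave 0 member probes in LT7 against GFP, 11 to 12 in ST7 against GFP and 10 in ST7 against LT7, and 0, 50 to 53 and 48 to 50 listed genes.

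With the replicate number as a block, 0, 12 and 10 member probes and 0, 53 and 51 listed genes were called. The differences between replicates 1 and 2 correlated at 0.11 (GFP with LT7), 0.07 (GFP with ST7) and -0.04 (LT7 with ST7) over 33144 probes, so the numbers were not taken to pair the arrays.

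Some log2 changes turned sign. On the spike-ins, LT7 against GFP became -1.03 and -1.33 for Plat probes 1 and 2, -1.90 and -1.30 for Plau probes 1 and 2, -2.10 and -1.98 for Serpinf1 probes 1 and 2, and -1.996, -1.93 and -1.94 for Serpinh1 probes 1, 2 and 3. The median of all probes moved to -2.05 there. Leaving out 1 array at a time, LT7 against GFP ran from -0.049 to 0.67 for Plau probe 1 (lowest without LT7 replicate 1) and from -0.12 to 0.067 for Plaur probe 2 (0.067 without LT7 replicate 1 and 0.03 without GFP replicate 2). With normexp, Plau probe 1 became 0.90 in ST7 against GFP and 0.65 against LT7. Plau probe 2, at background throughout, became -0.71 without scaling and -0.22 with quantile normalization in ST7 against LT7. Serping1 in ST7 against GFP became 0.79 with the percentile over all probes, 1.64 with normexp and 0.77 in the series matrix, and against LT7 -0.93 without scaling. Serpine2 in ST7 against LT7 became 1.87 with the percentile over all probes, 2.20 with quantile normalization, 0.37 with normexp, 1.85 in the series matrix, and with 1 array left out it ran from -0.18 to 0.048, the last without ST7 replicate 1. Why these changes turned was not tested. The falls of Plat, Plaur, Serpinf1 and Serpinh1 in ST7 against GFP kept their sign and their call under every alternative with a fitted test.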

Other observations

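Cd55, a gene of the complement list that encodes decay-accelerating factor, was chosen after its values were seen. It read 74.4 and 71.2 on the GFP arrays and 5.0 and 4.7 on the LT7 arrays, at background, and was at least 3.25-fold lower (limma adjusted p = 0.055). Thbd, which encodes thrombomodulin and was chosen in the same way, read 1001 and 1211 in GFP and 355 and 337 in LT7 (log2 change -1.58, limma adjusted p = 0.077). Neither passed the threshold, and over the alternatives the lowest limma adjusted p was 0.020 and 0.030.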
